A study of Rattus norvegicus with 4 samples.

Results

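The miRNAs miR-146a and miR-146b (rno-miR-146a and rno-miR-146b in the files) were examined in small RNA libraries of rat liver. They are 2 of the 680 rat miRNA names that each deposited file lists, and they were taken by name, from the rows without an asterisk (in this older naming the asterisk marks the minor arm of a precursor). The pair was chosen with its values known, miR-146b being selected on its RPM (reads per 1000000 reads), which had the highest ratio of fibrosis to normal liver among the more abundant miRNAs. Its levels and its balance with miR-146a are therefore given as a description, without a test. The labels put 2 samples in a hepatic fibrosis group and 2 in a normal liver group. Both groups are rat liver tissue from which total RNA was extracted. The strain, sex and age of the rats, the agent that caused the fibrosis and its duration were not found in the labels, which also do not state whether the replicates came from separate animals or whether tissue was pooled.

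The second fibrosis file and the second normal file hold the same value for each name, with 0 differences among 680. They were counted as 1 library, called the dual-labelled library below, since its labels do not settle its tissue. The column header of the file for normal replicate 2 does not match its title, and the headers of the other files do. This leaves 3 distinct libraries. The first fibrosis replicate (fibrosis library 1) and the first normal replicate (normal library 1) carry a single label each. A comparison of those 2 libraries has no replicate check and describes the libraries, not the conditions.

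miR-146a and miR-146b belong to 1 family and act as brakes on inflammatory signalling. Toll-like receptors and the interleukin-1 receptor activate the transcription factor NF-kB through the adaptor proteins Irak1 and Traf6, NF-kB induces miR-146a, and miR-146a in turn represses Irak1 and Traf6. In the liver the family is known from immune cells and from stellate cells, the collagen-producing cells of fibrosis, as well as from hepatocytes.

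The mature sequences show what the paralogues share and which bases tell their reads apart. Both members were matched by name to RefSeq entries on build GRCr8, with the rows without an asterisk taken as the 5p arm. They are shown 5′ to 3′ with the seed, bases 2 to 8, in capitals.
miR-146a (5p arm): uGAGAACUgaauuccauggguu
miR-146b (5p arm): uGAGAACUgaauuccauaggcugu
The seed GAGAACU was shared by 2 of the 724 mature rat sequences in the RefSeq table, which are these. The first 17 bases were identical, and no other mature sequence in the table began with them. With positions counted from 1 at the 5′ end and the miR-146a base first, the differences were G18A and U21C, so that 20 of the 22 bases of miR-146a had the same base at that position in miR-146b, which is 24 bases long. A read that ends before position 18 therefore fits both. The authors' rule for such reads is not stated in the labels, and the separate values below carry that uncertainty.

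The minor arms differ more, and each has a seed found in no other entry of the table.
miR-146a* (3p arm): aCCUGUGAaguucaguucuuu
miR-146b* (3p arm): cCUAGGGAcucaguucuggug
Both asterisk rows were at 0 reads in all 3 libraries, which allows up to 0.432 RPM in fibrosis library 1, 0.424 RPM in normal library 1 and 0.472 RPM in the dual-labelled library, taking 3 reads as the limit. Such limits, like all intervals here, describe counting error alone: the reads carry no molecular identifiers and are not independent molecules.

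The paralogues come from separate loci. In RefSeq the hairpin of Mir146a lies on the minus strand at chr10:28349996-28350090 (GRCr8), within the span of the long non-coding RNA gene LOC134480673, and that of Mir146b on the plus strand at chr1:255144860-255144947, within the span of the protein-coding gene C1h10orf95. Coding neighbours of Mir146b on one side include Cuedc2, Fbxl15, Psd and Nfkb2, which encodes an NF-kB subunit, while Pttg1 and Atp10b flank Mir146a. The hairpins are shown with the mature 5p arm in capitals, since most of the difference between the loci lies outside that arm.
Mir146a hairpin: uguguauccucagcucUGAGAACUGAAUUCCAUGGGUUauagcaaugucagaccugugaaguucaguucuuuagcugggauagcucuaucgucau
Mir146b hairpin: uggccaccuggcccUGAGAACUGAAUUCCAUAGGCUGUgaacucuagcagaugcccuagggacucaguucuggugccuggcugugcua
A global alignment of the hairpins, 95 and 88 bases long, had 61 identical positions in 101 columns (60.4%).

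The scaling totals recovered from the deposited RPM were 6357069 to 7070374 reads. Of these, 3339603 to 3653412 reads fell on listed miRNAs, of which 236 to 250 were detected in a library. The hepatocyte miRNAs miR-122, miR-192 and miR-194 were present in all 3 libraries with summed levels of 251792 RPM in fibrosis library 1, 272148 RPM in normal library 1 and 255470 RPM in the dual-labelled library. Over the 294 miRNAs above 0 in any library, limma on log2(RPM + 1) with the 4 files as labelled called 0 (0%) at an adjusted p under 0.05, with 4 at an unadjusted p under 0.05. On the recovered reads edgeR's quasi-likelihood test called 0, with 1 at an unadjusted p under 0.05, and DESeq2 called 0, with 0. With 1 library in both groups the spread within a group comes from the same libraries as the difference, so these counts say little about the tissues.

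miR-146b, the more abundant paralogue in 2 of the 3 libraries, stood at 33.7 RPM in fibrosis library 1 (234 reads, 95% exact Poisson interval 29.5 to 38.3), 9.19 RPM in normal library 1 (65 reads, 7.10 to 11.7) and 33.2 RPM in the dual-labelled library (211 reads, 28.9 to 38.0). The normal library 1 library was thus low, and the other libraries were close to each other with overlapping intervals. miR-146a, the family member with the best described feedback role, stood at 7.77 RPM in fibrosis library 1 (54 reads, 5.84 to 10.1), 9.76 RPM in normal library 1 (69 reads, 7.59 to 12.4) and 10.9 RPM in the dual-labelled library (69 reads, 8.45 to 13.7). Its intervals overlapped in all 3 libraries, with fibrosis library 1 the lowest, so no order of its levels was resolved at this depth. In tissue RNA, fewer cells of a type and less RNA per cell cannot be told apart.

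**Figure D1:**
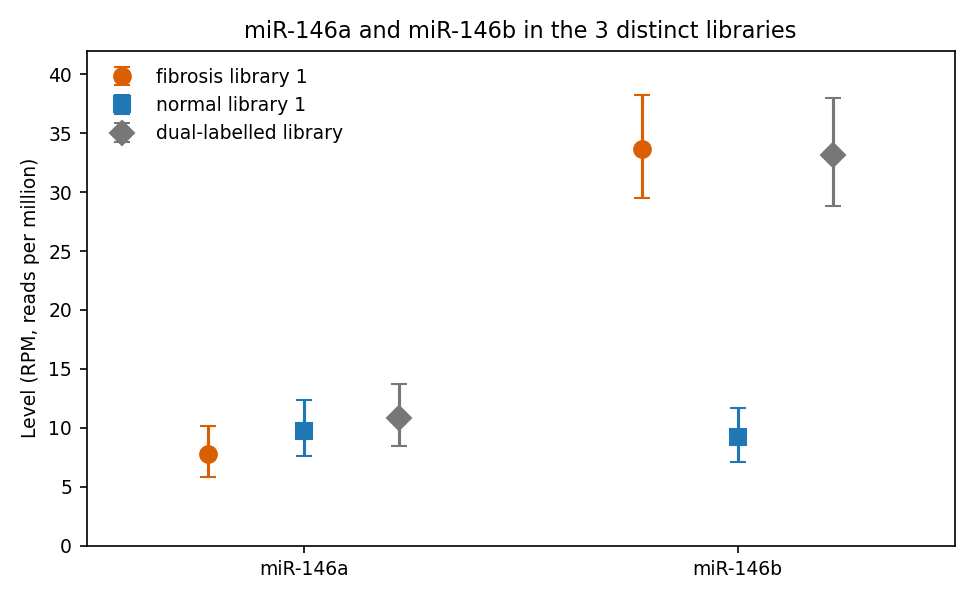
Level of miR-146a and miR-146b in RPM (vertical axis, from 0) in fibrosis library 1, normal library 1 and the dual-labelled library, with 95% exact Poisson intervals as bars. miR-146b stood at 33.7 and 33.2 RPM in fibrosis library 1 and the dual-labelled library and at 9.19 RPM in normal library 1, while the intervals of miR-146a overlapped.

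By abundance, miR-146b held place 48 of the 250 miRNAs detected in fibrosis library 1, place 75 of 239 in normal library 1 and place 47 of 236 in the dual-labelled library. miR-146a held places 78, 74 and 70 in the same order. In normal library 1 the paralogues were therefore next to each other in rank, and in the other libraries miR-146b was well ahead. Both were minor species of these libraries: 1 in 14988 miRNA reads was miR-146b in fibrosis library 1, 1 in 56206 in normal library 1 and 1 in 15828 in the dual-labelled library.

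Between fibrosis library 1 and normal library 1 the ratio of RPM was 3.66 for miR-146b (95% interval 2.77 to 4.90, exact binomial on the reads) and 0.796 for miR-146a (0.547 to 1.15). The 2 members thus lay on opposite sides of 1, the interval of miR-146a including 1. miR-146b was 1 of the 6 of 76 miRNAs averaging 10 RPM or more that differed at least 1.5-fold (7.89%). It had the highest ratio among them, and the rule that chose it rests on this value. miR-146a had a mean of 8.76 RPM in this pair of libraries and so did not reach that minimum. Set beside the 76, its ratio was lower than those of 65 and higher than those of 11, where the median was 0.926.

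The dual-labelled library gave a ratio to normal library 1 of 3.61 for miR-146b (2.72 to 4.84) and of 1.11 for miR-146a (0.785 to 1.58). In this pair, where 20 of 73 miRNAs differed at least 1.5-fold (27.4%), miR-146b exceeded the ratios of all 72 others at the minimum. Normal replicate 1 was the denominator in both pairs, so the ratios of 3.66 and 3.61 share its 65 reads. Against fibrosis library 1 the dual-labelled library had a ratio of 0.986 for miR-146b (0.815 to 1.19) and 1.397 for miR-146a (0.964 to 2.03), both with intervals that included 1, while 14 of 72 miRNAs differed at least 1.5-fold (19.4%). In the pair of libraries that agreed on miR-146b, its ratio stood in the middle of the others, with 37 higher and 34 lower.

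**Figure D2:**
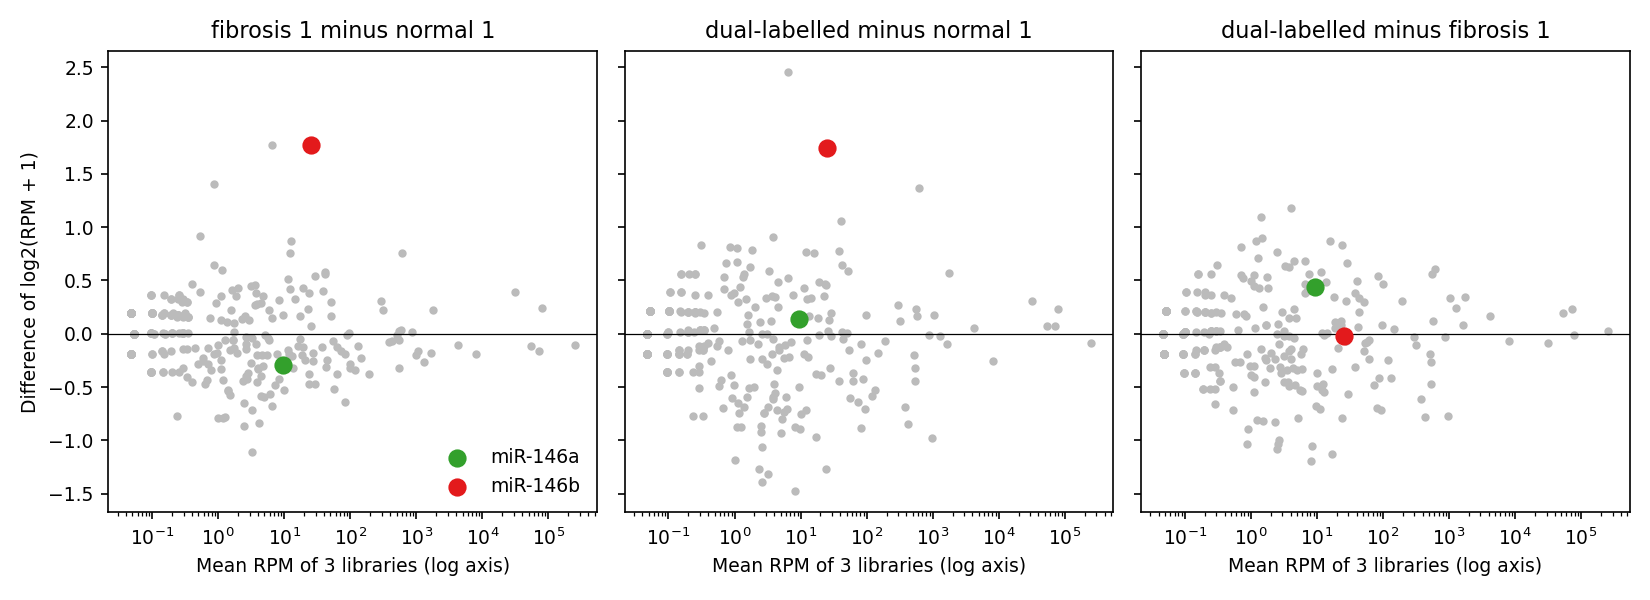
Difference of log2(RPM + 1) between libraries (vertical axis) against the mean RPM of the 3 libraries (horizontal log axis) for each detected miRNA (grey), with miR-146a in green and miR-146b in red. miR-146b lies far above 0 in the panels against normal library 1 and at 0 between the dual-labelled library and fibrosis library 1. A less abundant miRNA, with a mean under 10 RPM, lies as high or higher in the first 2 panels.

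What the labels imply for the tissues turned on the label of the dual-labelled library. Counted as fibrosis, it gave a fibrosis mean for miR-146b of 33.4 RPM ± 0.334 (SD, n = 2) against 9.19 RPM in 1 normal library, a ratio of 3.64, and the groups did not overlap. Normal replicate 1 lay below both other libraries for 20 of 73 miRNAs averaging 10 RPM or more (27.4%), and at least 1.5-fold below both for 4 of 73 (5.48%). Counted as normal, it gave 33.7 RPM in 1 fibrosis library against a normal mean of 21.2 RPM ± 17.0 (SD, n = 2), a ratio of 1.59, and the fibrosis value exceeded the upper normal value by less than the counting error. With that reading the 2 normal libraries differed from each other more than the group means did.

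For miR-146a the same readings gave 9.31 RPM ± 2.18 (SD, n = 2) in fibrosis against 9.76 RPM in normal liver, a ratio of 0.954 with overlapping groups, or 7.77 RPM in fibrosis against 10.3 RPM ± 0.774 (SD, n = 2) in normal liver, a ratio of 0.754. Under the second reading the fibrosis library lay below both normal ones, as it did for 23 of 73 miRNAs at the minimum (31.5%). Neither reading placed the mean of miR-146a higher in fibrosis.

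The balance of the paralogues is a share within a library and does not depend on scaling. miR-146b made up 81.25% of the miR-146a and miR-146b reads in fibrosis library 1 (234 of 288 reads, 95% exact binomial interval 76.3 to 85.6). It made up 48.5% in normal library 1 (65 of 134 reads, 39.8 to 57.3) and 75.4% in the dual-labelled library (211 of 280 reads, 69.9 to 80.3). There were thus 4.33 miR-146b reads per miR-146a read in fibrosis library 1 (3.21 to 5.94), 0.942 in normal library 1 (0.661 to 1.34) and 3.06 in the dual-labelled library (2.32 to 4.07). The intervals of fibrosis library 1 and the dual-labelled library overlapped, and that of normal library 1 lay below both. The part of reads that fit both sequences in these shares was not tested.

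The difference in balance came with a difference in the total. The paralogues together stood at 41.4 RPM in fibrosis library 1, 19.0 RPM in normal library 1 and 44.0 RPM in the dual-labelled library, a ratio of 2.19 between the first and second and of 2.32 between the third and second. Of the 22.5 RPM by which the sum in fibrosis library 1 exceeded that in normal library 1, miR-146b contributed 24.5 RPM and miR-146a -1.99 RPM. The dual-labelled library exceeded normal library 1 by 25.1 RPM, with 24.0 RPM from miR-146b and 1.10 RPM from miR-146a. In both comparisons the difference in the level of the shared seed thus lay mainly in miR-146b. The direction of the miR-146a difference was not resolved in either. Its ratio had intervals of 0.547 to 1.15 in the first and 0.785 to 1.58 in the second, both including 1.

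The balance of other lettered miRNAs was computed in the same way for each pair of names that differ in the letter after the number, where both averaged 10 RPM or more. The miR-146 pair was kept although miR-146a, at 9.46 RPM, misses that minimum. This gave 31 other pairs in 9 families, 21 of them among let-7 names, which share members and differ by few bases. The share of miR-146b ranged over 32.7 percentage points across the 3 libraries, and the median range of the other pairs was 1.81 points. Among those 31 the widest was 19.1 points for miR-26a and miR-26b, hepatic miRNAs with a common seed, where miR-26b took 51.4% in fibrosis library 1, 55.7% in normal library 1 and 70.5% in the dual-labelled library. There the dual-labelled library stood apart, not normal library 1. miR-99b took 29.9%, 21.1% and 25.3% of the miR-99a and miR-99b reads, a range of 8.84 points, and let-7b took 41.1%, 32.9% and 36.6% of the let-7a and let-7b reads, a range of 8.20 points. On the log2 scale of the ratio between paralogues, which does not shrink for lopsided pairs, the range was 2.20 for miR-146 and 1.18 for miR-26, with a median of 0.36 for the other pairs. With the minimum lowered to 5 RPM, an alternative chosen after the values were seen, there were 34 other pairs. One of them, miR-27a and miR-27b from the miR-23/27/24 clusters, had a wider log2 range than miR-146, at 2.66, on 115 to 209 reads. miR-27a took 24.7% of that pair's reads in fibrosis library 1, 7.83% in normal library 1 and 34.9% in the dual-labelled library, a range of 27.1 points, with normal library 1 again the lowest. The miR-146 pair was chosen for its values and rests on 134 to 288 reads, so its place among the pairs is a description.

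**Figure D3:**
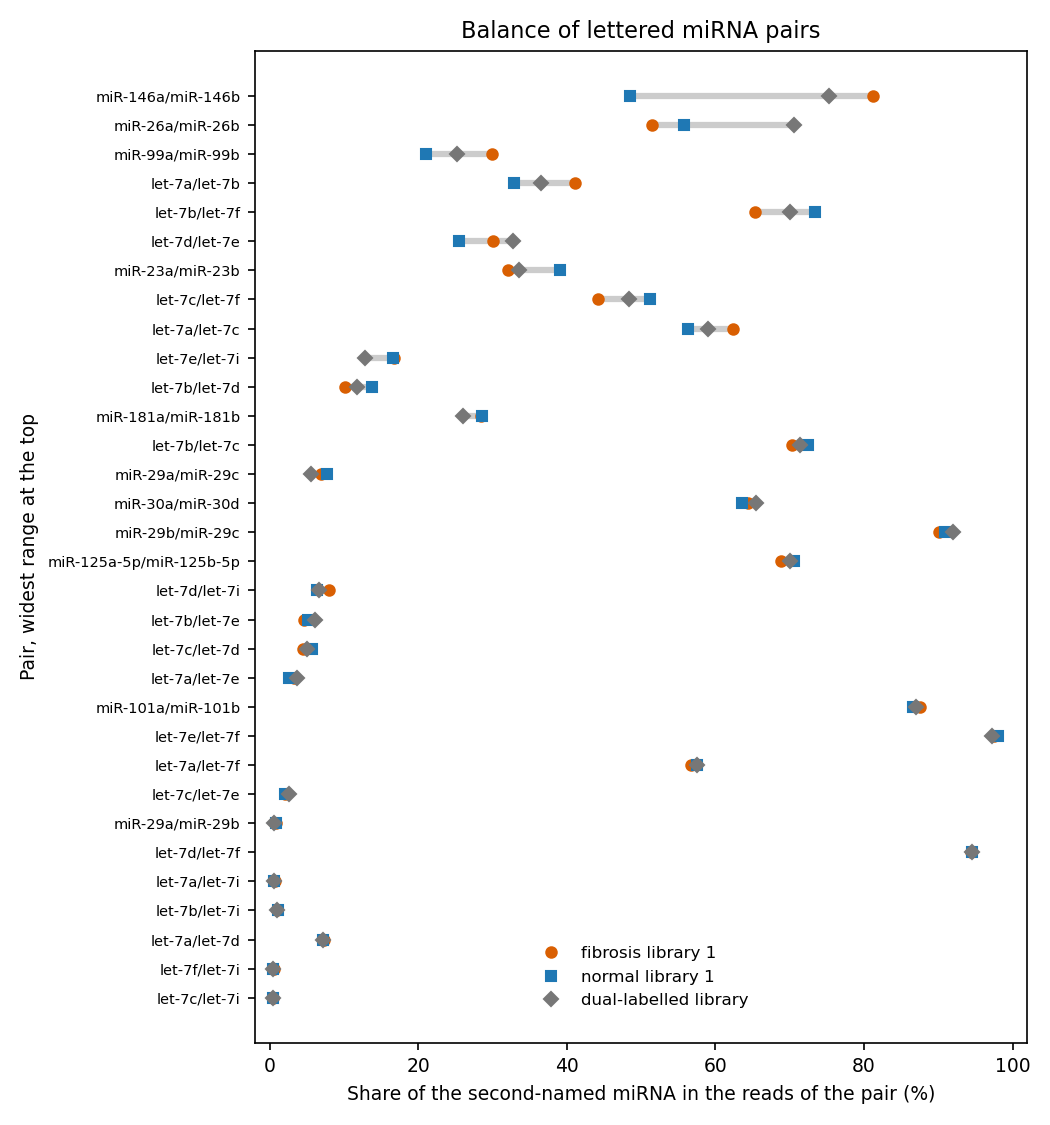
Share of the second-named miRNA in the reads of each lettered pair (horizontal axis, %), with 1 point per distinct library and a grey bar from the lowest to the highest. The miR-146 pair at the top runs from 48.5% in normal library 1 to 81.25% in fibrosis library 1, and 23 of the 31 other pairs range over less than 5 points. Pairs under 10 RPM other than miR-146, such as miR-27a and miR-27b, are not drawn.

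The patterns most like each member were sought by the Euclidean distance between log2(RPM + 1) values centred on their mean over the 3 libraries, among miRNAs averaging 10 RPM or more. With 3 libraries such a pattern has little detail, and many miRNAs can lie close by. For miR-146a the 5 nearest of 73 were miR-31 (distance 0.029), miR-30c-2* (0.037), miR-497 (0.073), miR-99a (0.093) and miR-26b (0.093), all lowest in fibrosis library 1 and highest in the dual-labelled library. That order is the one of miR-146a, so it follows from their choice by nearness. Fibrosis library 1 lay below both other libraries for 23 of the 73 (31.5%). miR-31 stood at 82.1 RPM in fibrosis library 1, 100.3 RPM in normal library 1 and 113.7 RPM in the dual-labelled library. Of the same 73, 72 were nearer to miR-146a than its paralogue was, at a distance of 1.53. From the side of miR-146b, 38 of 72 were nearer to it than miR-146a was. The distance is not scaled for the size of a gap, and miR-146b was chosen for a large gap. The far place of miR-146b therefore follows from that choice.

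For miR-146b the nearest of 72 lay much farther off, as its large gap in an unscaled distance implies. They were miR-199a-3p (0.72), a miRNA of mesenchymal cells including stellate cells, miR-33 (0.81), a repressor of cholesterol export, miR-142-5p (0.86), a miRNA of blood cells, miR-532-5p (0.94) and miR-24 (0.99), a member of the miR-23/27/24 clusters. All 5 were lowest in normal library 1, which follows from their choice by nearness to miR-146b. Over all 73 miRNAs averaging 10 RPM or more, normal library 1 lay below both other libraries for 20 (27.4%). miR-199a-3p stood at 592 RPM in fibrosis library 1, 350 RPM in normal library 1 and 903 RPM in the dual-labelled library. miR-33 stood at 14.1 RPM, 7.92 RPM and 14.2 RPM in the same order, which leaves fibrosis library 1 and the dual-labelled library level, as for miR-146b, with a smaller gap below them.

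**Figure D4:**
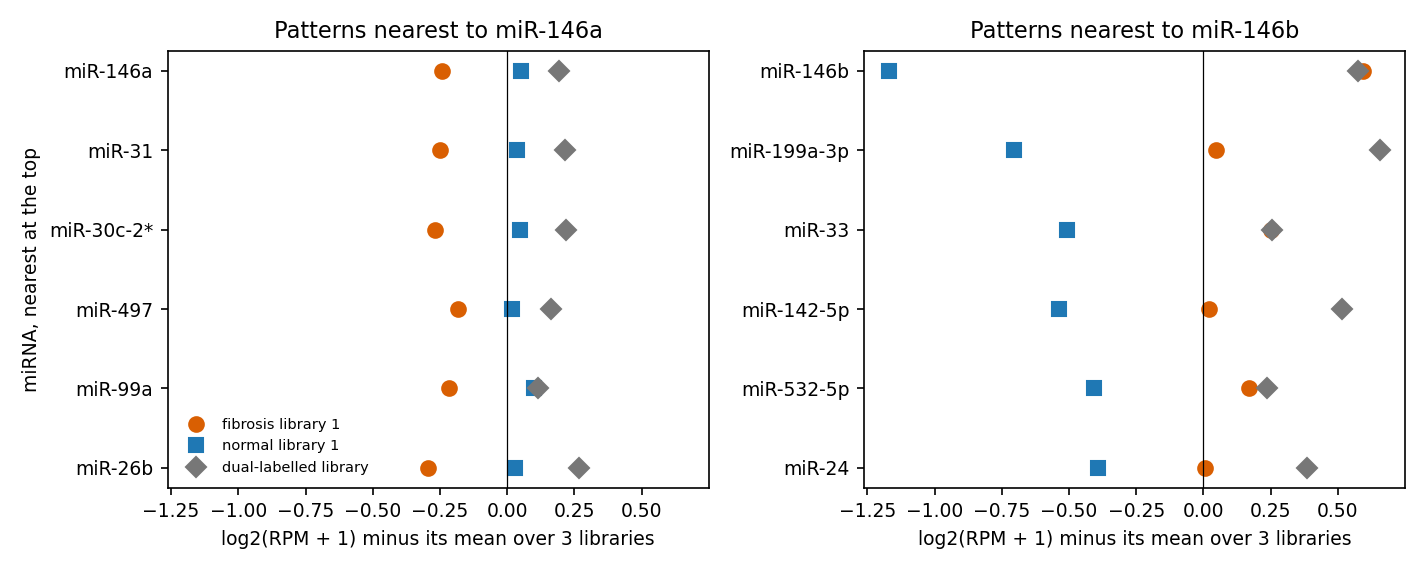
log2(RPM + 1) minus its mean over the 3 libraries (horizontal axis) for miR-146a (left) and miR-146b (right) and the 5 miRNAs nearest to each, with 1 point per distinct library. The 5 neighbours of miR-146a lie within a distance of 0.093 of it, while normal library 1 lies farther below the mean for miR-146b than for any of its 5 neighbours. The choice of miR-146b for its high ratio to normal liver bears on this gap.

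The miRNAs described as induced by NF-kB or Toll-like receptor signalling lay on both sides of 1. Besides the paralogues the list held 11 names, 6 of them averaging 10 RPM or more. Of these, 2 were higher and 4 lower in fibrosis library 1 than in normal library 1, 0 differed at least 1.5-fold (7.89% of the 76 did, so 0 of 6 is no result about the list), and the median ratio was 0.915 beside 0.926 over the 76 miRNAs at that minimum. let-7e, which is processed from a cluster with miR-99b and miR-125a, stood at 1695 RPM in fibrosis library 1, 1454 RPM in normal library 1 and 2154 RPM in the dual-labelled library (ratio of the first to the second 1.17, 1.13 to 1.20). miR-99b stood at 15.5 RPM, 12.2 RPM and 15.6 RPM (1.28, 0.953 to 1.72). Normal replicate 1 was the lowest library for these 2, as for miR-146b, but by a smaller fold.

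The remaining 4 lay lower in fibrosis library 1. miR-21, an injury-induced miRNA, stood at 934 RPM, 1042 RPM and 1178 RPM in the same order of libraries (0.897, 0.867 to 0.927). miR-125b-5p, a repressor of Tnf, stood at 39.3 RPM, 46.8 RPM and 45.3 RPM (0.839, 0.712 to 0.988). The intervals of miR-125a-5p (0.914, 0.711 to 1.17) and of miR-221 (0.916, 0.774 to 1.08) included 1. Below the minimum, miR-222 stood at 6.76 RPM, 5.66 RPM and 5.19 RPM, and miR-132, miR-147, miR-9 and miR-187 had between 0 and 2 reads in a library, too few to compare.

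**Figure D5:**
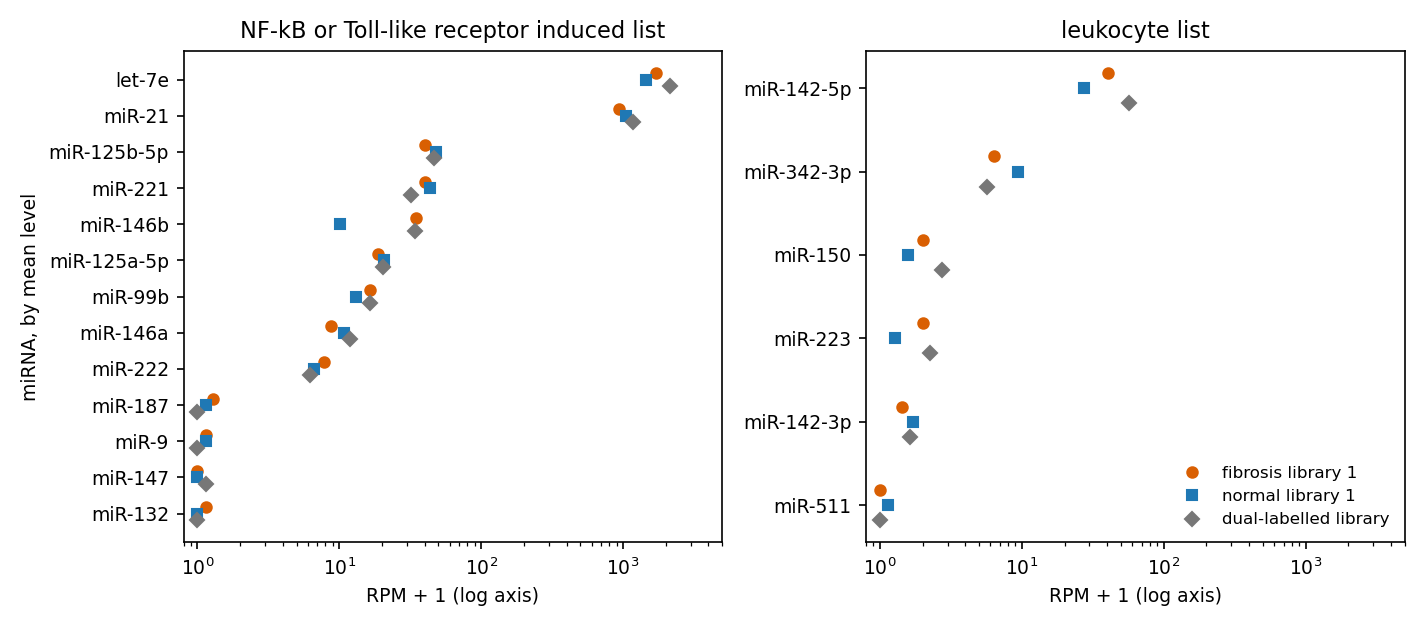
RPM + 1 (horizontal log axis) of the miRNAs described as induced by NF-kB or Toll-like receptor signalling (left, with both miR-146 paralogues) and of the leukocyte markers (right), with 1 point per distinct library. Among the list members averaging over 10 RPM, miR-146b shows the largest fold between normal library 1 (9.19 RPM) and fibrosis library 1 (33.7 RPM). It was chosen for this ratio, so that place was fixed in advance.

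Markers of immune cells, which also express miR-146, moved partly with miR-146b. The 6 leukocyte miRNAs summed to 47.2 RPM in fibrosis library 1, 36.5 RPM in normal library 1 and 64.3 RPM in the dual-labelled library, and their part in the difference of miR-146b was not tested. miR-142-5p made up most of this, at 39.4 RPM, 26.4 RPM and 56.0 RPM (ratio of fibrosis library 1 to normal library 1 1.49, 1.23 to 1.80). It was higher in the dual-labelled library than in fibrosis library 1, where miR-146b was level. The myeloid miRNA miR-223 had 7, 2 and 8 reads, the lymphoid miRNA miR-150 had 7, 4 and 11 reads, miR-142-3p had 3, 5 and 4 reads, and the macrophage miRNA miR-511 had 0, 1 and 0 reads. Its other arm, miR-511*, which was not in the list and was added after the values were seen, had 84, 93 and 146 reads (12.1, 13.2 and 23.0 RPM), so that normal library 1 was not the lowest for it. miR-342-3p went the other way, at 5.32 RPM, 8.34 RPM and 4.72 RPM.

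Other cell type markers also differed between the libraries, and their part in the values of the paralogues was not tested. The 5 mesenchymal miRNAs summed to 669 RPM in fibrosis library 1, 466 RPM in normal library 1 and 1009 RPM in the dual-labelled library, most of it miR-199a-3p. The other 4 of the list summed to 76.7 RPM, 116.0 RPM and 105.2 RPM, highest in normal library 1. Of these, miR-143 stood at 62.1 RPM, 97.3 RPM and 91.2 RPM, miR-145 at 9.21 RPM, 13.7 RPM and 6.92 RPM, miR-199a-5p at 2.01 RPM, 2.40 RPM and 1.42 RPM, and miR-214 at 3.31 RPM, 2.55 RPM and 5.66 RPM. The erythroid miRNAs miR-451 and miR-144 summed to 2.88 RPM, 7.78 RPM and 2.05 RPM, highest in normal library 1. Both averaged under 10 RPM, and the sums rest on few reads. miR-451 had 15, 41 and 11 reads, and miR-144 had 5, 14 and 2. The ratio of fibrosis library 1 to normal library 1 for miR-144 had an interval of 0.102 to 1.07, which includes 1. The endothelial miR-126 and miR-126* summed to 7.77 RPM, 6.51 RPM and 10.9 RPM. All 3 hepatocyte miRNAs were highest in normal library 1. The share of all miRNAs highest there was not counted. Among miRNAs averaging 10 RPM or more, the median ratio of fibrosis library 1 to normal library 1 was 0.926. That ratio was 0.927 for miR-122, level with the median, and 0.876 for miR-192. For the dual-labelled library over normal library 1 the median was 0.991, with 0.942 for miR-122 and 0.838 for miR-192. The sum given above is nearly all miR-122, at 243915 RPM, 263140 RPM and 247931 RPM. miR-192 stood at 7826 RPM, 8936 RPM and 7492 RPM, and miR-194 at 49.9 RPM, 72.1 RPM and 47.2 RPM, a ratio to normal library 1 of 0.692 in fibrosis library 1 and 0.654 in the dual-labelled library.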

How the data were processed

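Per the labels' protocols, total RNA of rat liver went into an Illumina small RNA library kit. CASAVA 1.4 and genome build rn5 are named, per the submitters' processing notes; the aligner and the miRNA annotation version are not stated there. The authors deposited RPM (reads per 1000000 reads). Each value was a whole multiple of 1 read (100% of values above 0, within 0.01 reads), which gave whole reads and the scaling totals. Intervals are at 95%. The files' labels gave 2 groups of 2, and the identical pair was counted once. limma 3.58.1 (R 4.3.3) was fitted to log2(RPM + 1) with a trended prior variance and p-values adjusted by Benjamini and Hochberg's method. It was tested on simulated data with separate libraries only, which does not cover a library shared by both groups. The recovered reads also went into edgeR 4.0.16 and into DESeq2 1.42.0, without a filter beyond at least 1 read in any library. Python 3.11.15, scipy 1.17.1 and matplotlib 3.10.9 gave intervals and plots. Sequences came from RefSeq (GRCr8), where both members matched.

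The members and lists were chosen with earlier results of these data known. The named miRNAs are the members, their asterisk rows, names with the same seed, the 5 nearest patterns per member, the 3 other pairs with the widest range of share, and list members averaging 10 RPM or more. Other miRNAs named with values are list members under that minimum and, chosen after their values were seen, miR-511*, miR-27a and miR-27b. Alternatives covered scaling, pseudocount, filter, test, the dual-labelled library, the replicate block and leaving out each library.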

Additional observations from a re-analysis of the deposited data

How the results depend on the processing

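The ratio of fibrosis library 1 to normal library 1 kept its direction for both paralogues under 5 other scalings (DESeq2 size factors, TMM, upper quartile, and miRNA reads with and without miR-122), from 3.48 to 3.84 for miR-146b and from 0.758 to 0.834 for miR-146a. A pseudocount of 10 RPM lowered the ratio of miR-146b to 2.27, outside its counting interval, since that pseudocount is above its level in normal library 1. Adding the asterisk rows, which hold 0 reads, left the shares as they were. The ratio of the dual-labelled library to fibrosis library 1 for miR-146b ran from 0.926 to 1.14 and turned direction in 2 of 5 scalings; upper-quartile factors shift all ratios of that pair by 0.21 on the log2 scale. The count called by limma was 0 without a filter, at a mean of at least 10 RPM, with pseudocounts of 0.1 and 10 RPM, and with the dual-labelled library once in either group. At an unadjusted p under 0.05 these gave 3, 0, 3 and 3 miRNAs, and 36 (as fibrosis) or 27 (as normal). Leaving out each library gave 0 to 0 calls. With the replicate block limma called 0, with 0 at an unadjusted p under 0.05. Deviations of same-numbered libraries correlated at 0.69 for both numbers, a value forced to be equal by the layout of 2 groups of 2. The dual-labelled library enters the deviations of both groups, which raises the correlation whatever the pairing. Pairing was therefore not shown and cannot be judged from this value. Depth limits miR-146a most, at 54 to 69 reads. The number of other lettered pairs with a wider log2 range than miR-146 went from 0 to 1 (miR-27a and miR-27b) at a minimum of 5 RPM and to 1 at a minimum of 1 RPM, both added after seeing the data; in percentage points it was 0 at each minimum.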

Other observations

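Of the 73 miRNAs averaging 10 RPM or more over the libraries, 4 stood at least 1.5-fold lower in normal library 1 than in both other libraries, and all 4 are named in the report: miR-146b, miR-199a-3p, miR-33 and miR-532-5p. The smaller of the 2 folds was 3.61 for miR-146b, 1.78 for miR-33, 1.69 for miR-199a-3p and 1.51 for miR-532-5p, which had 323 reads in fibrosis library 1, 218 in normal library 1 and 310 in the dual-labelled library. The count was made after the values were seen.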
